A study of Homo sapiens with 12 samples.

Results

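MESH1, listed under its gene symbol HDDC3, and 8 genes of NADPH metabolism were followed in RNA-seq libraries of RCC4 cells. The 9 genes, HDDC3, NADK, PGD, TALDO1, ME1, IDH1, IDH2, MTHFD1 and NNT, were chosen by symbol from the 23710 gene rows of each count file, and all 9 had a row and passed the filter on low counts in both experiments. RCC4 is an established human line of clear cell renal carcinoma that lacks functional VHL. The cells received siRNA at 40 pmol and were harvested after 72 hours, and 6 libraries were made in each of 2 experiments. In experiment 1, 3 libraries of siMESH1-CDS, an siRNA against the coding sequence of MESH1, were compared with 3 libraries of siNT, a non-targeting siRNA. In experiment 2, 3 libraries of siMESH1-7002, a second siRNA of different sequence, were compared with 3 siNT libraries of their own. All groups share the cell line, the dose of siRNA and the time. Each knockdown rests on 1 siRNA sequence, and the files hold RNA only, so neither MESH1 protein nor NADPH itself was measured here.

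NADPH carries the electrons that cells spend on making fatty acids, sterols and deoxynucleotides and on regenerating glutathione and thioredoxin. NAD kinase makes NADP by adding a phosphate to NAD, and several dehydrogenases then reduce NADP to NADPH, in the cytosol mainly those of the pentose phosphate pathway, malic enzyme, isocitrate dehydrogenase and folate metabolism. MESH1 runs against NAD kinase, since it removes that phosphate from NADPH. The comparison therefore asks what the mRNAs of the enzymes that make NADP and NADPH did when the mRNA of the enzyme that breaks NADPH down was reduced.

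The sites that the siRNAs target in HDDC3 mRNA are shown because the knockdowns differ in where they strike the transcript. Capitals mark the target, and lower case the neighbouring bases of the GENCODE transcript, read 5′ to 3′ as DNA.
siMESH1-CDS site: gaggcGGGAATCACTGACATTGTGgtgtt
siMESH1-7002 site: cagtCTGAAGGTCTCCTGCTAACTAagct
The siMESH1-CDS site lies at chr15:90932064-90932082 on the minus strand of GRCh38, by a match of the sequence to the annotated transcript, in the coding part of exon 2 of 4. It is present in 9 of the 10 annotated HDDC3 transcripts and in all 5 that code for protein. The siMESH1-7002 site lies at chr15:90931109-90931129, in the 3′UTR in exon 4 of 4, and is present in 6 of the 10 transcripts and in 4 of the 5 coding ones. The sequence of siMESH1-7002 is the one that the design text of the series and the protocol of the experiment 2 libraries give. The protocol of the experiment 1 libraries names another catalogue number for a 3′UTR siRNA that none of those libraries received by its label. Neither full target occurred in an annotated transcript of another gene. The strand complementary to each target, which guides the silencing complex, is given with its seed (bases 2 to 8 from the 5′ end) in capitals.
siMESH1-CDS guide: cACAATGTcagtgattccc
siMESH1-7002 guide: tAGTTAGCaggagaccttcag
A guide can also lower other mRNAs that pair with its seed in their 3′UTR. None of the 9 genes holds a match to the siMESH1-CDS seed in its 3′UTR, while 13.1% of 18447 annotated genes do. The siMESH1-7002 seed has 1 match in HDDC3, which is the target itself, and 1 match in ME1, against 4.85% of genes with a match.

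The siMESH1-CDS libraries stood apart from the others in ways that touch every result below. Libraries held 34063155 to 49134129 reads in genes in experiment 1 and 24787804 to 31651125 in experiment 2. The biological coefficient of variation between replicates was 0.299 in experiment 1 and 0.0490 in experiment 2. Chi-square per degree of freedom between libraries of 1 group, near 1 for sampling noise alone, was 65.2 to 275 for siMESH1-CDS and 2.24 to 15.2 for the other groups. Changes with siMESH1-CDS also followed the GC content of the transcripts, with a median log2 fold change of 1.10 in the lowest of 10 equal bins of genes by GC content and -3.70 in the bin with the highest, against 0.14 and -0.097 with siMESH1-7002. Changes are therefore given as counted and again after a correction of each library for GC content. The correction moves the median log2 fold change of all genes from -0.047 to 0.17 with siMESH1-CDS and from 0.0053 to 0.076 with siMESH1-7002. It raises the share of called genes that are higher from 49.8% to 60.3% with siMESH1-CDS and from 49.9% to 62.5% with siMESH1-7002. Of 8 marker genes of kidney tumour cells, 7 reached 1 CPM (reads for the gene relative to the TMM-scaled library size) in every group and LRP2 did not. Markers of leukocytes (PTPRC, CD3E), endothelium (PECAM1, CDH5) and liver (ALB) stayed under 1 CPM, and CD68 and EPCAM, on the same list, did not. The summed level of that list was 56.1 to 73.4 CPM in siNT and 26.3 to 31.0 with siMESH1-CDS, and 132 to 134 in siNT and 168 to 177 with siMESH1-7002. With siMESH1-CDS the mean of CD68 went from 54.7 to 3.57 CPM and that of EPCAM from 10.8 to 24.4 CPM, in opposite directions. With siMESH1-7002 they went from 105 to 140 CPM and from 28.2 to 31.4 CPM. The part of this list in the results was not tested.

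HDDC3 mRNA was reduced in every knockdown library. Reads on HDDC3 numbered 438, 292 and 361 in the siNT libraries of experiment 1 and 5, 0 and 11 with siMESH1-CDS. They numbered 442, 326 and 358 in the siNT libraries of experiment 2 and 36, 35 and 52 with siMESH1-7002. In bulk RNA, fewer cells with an mRNA and less of it per cell cannot be told apart. No knockdown library reached a siNT library of its experiment, and the knockdown libraries kept 2.11% of the siNT level with siMESH1-CDS and 10.4% with siMESH1-7002 in CPM. With siMESH1-CDS the log2 fold change was -5.56 (95% interval -7.57 to -3.56, edgeR quasi-likelihood test, adjusted p = 0.00174), and it moved to -6.66 without siMESH1-CDS replicate 3 and to -4.93 without replicate 2. With siMESH1-7002 it was -3.25 (-3.53 to -2.98, adjusted p = 2.51e-12, same edgeR test). After GC correction the values were -3.73 and -3.12. The deeper fall with siMESH1-CDS passed the test of the difference as counted (siMESH1-7002 minus siMESH1-CDS 2.47, 95% interval 1.17 to 3.78, edgeR adjusted p = 0.00370) and not after GC correction (0.51, edgeR adjusted p = 0.326). The test of the difference pools the spread of both experiments. Its SE as counted (0.588) was below the SE of the siMESH1-CDS change in its own experiment (0.823). Exons of HDDC3 overlap those of UNC45A on the opposite strand, whose log2 fold changes were -4.35 and -0.14. Whether reads were counted by strand is not given in the sources used here, so reads in the overlap cannot be told apart.

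**Figure D1:**
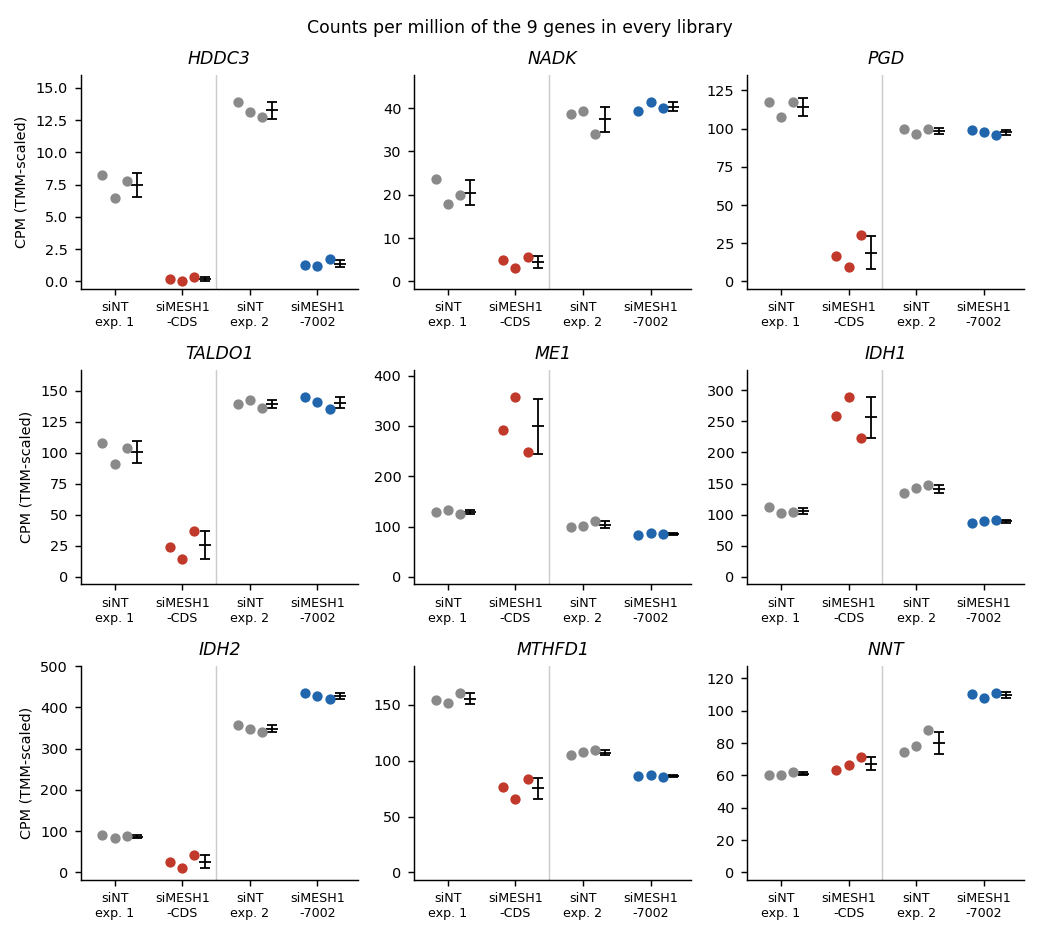
CPM (vertical axes, scaled by TMM, each from 0) of the 9 genes in every library. Points are libraries, replicates 1 to 3 from left to right, and bars are the mean and SD of 3 libraries, with siNT in grey, siMESH1-CDS in red and siMESH1-7002 in blue, and the grey line separates the experiments. HDDC3 is low with both siRNAs, while IDH2, at 86.9 CPM in siNT of experiment 1 and 349 CPM in siNT of experiment 2, fell with one and rose with the other.

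Of the 9 genes, 8 were called with siMESH1-CDS at an adjusted p under 0.05, where 74.1% of all 13395 genes tested were called. ME1 and IDH1 were higher (36.9% of all genes were), HDDC3, NADK, PGD, TALDO1, IDH2 and MTHFD1 were lower (37.2% of all genes), and NNT was not called. With siMESH1-7002, 6 of the 9 were called, where 53.3% of 13568 genes were. IDH2 and NNT were higher (26.6% of all genes), HDDC3, ME1, IDH1 and MTHFD1 were lower (26.7% of all genes), and NADK, PGD and TALDO1 were not called. The median log2 fold change of the 9 was -1.73 with siMESH1-CDS and -0.015 with siMESH1-7002, beside -0.047 and 0.0053 for all genes. HDDC3 and MTHFD1 fell with both siRNAs, and 15.1% of the 12824 genes tested with both did so. None of the 9 rose with both, where 15.5% of genes did, so the 2 called in the same direction stand beside 30.7% of genes. HDDC3 is the target of both siRNAs, so its part in these counts, and in those of the 9 genes below, restates the knockdown. Among the other 8 genes only MTHFD1 was called in the same direction with both. ME1, IDH1 and IDH2 were called in opposite directions, as were 11.6% of genes. The libraries of the groups did not overlap for 9 of 9 genes with siMESH1-CDS (82.7% of all genes) and for 7 of 9 with siMESH1-7002 (59.5%), where PGD and TALDO1 overlapped. The exact permutation p was 0.1 for each gene without overlap, the smallest that 3 against 3 libraries can give.

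NADK, the cytosolic NAD kinase that opposes MESH1, fell with siMESH1-CDS and was not called with siMESH1-7002. In experiment 1 it had 1255, 805 and 930 reads in siNT (17.8 to 23.6 CPM) and 153, 117 and 199 with siMESH1-CDS (3.04 to 5.72 CPM). In experiment 2 its CPM was 38.7, 39.3 and 34.1 in siNT and 39.4, 41.5 and 40.1 with siMESH1-7002. All siMESH1-CDS libraries thus lay far below their siNT libraries, and the siMESH1-7002 libraries lay just above theirs. The log2 fold change was -2.17 with siMESH1-CDS (SE 0.284, edgeR adjusted p = 0.00116) and 0.11 with siMESH1-7002 (95% interval -0.025 to 0.25, edgeR adjusted p = 0.160). NADK has a GC content of 56.7%, and in its GC bin the median log2 fold change with siMESH1-CDS was -1.65. After GC correction its change with siMESH1-CDS was -0.16 and no longer called (edgeR adjusted p = 0.549), and that with siMESH1-7002 was 0.24 and called (edgeR adjusted p = 8.01e-05). The corrected median of all genes with siMESH1-7002 was 0.076. The fall as counted differed between the siRNAs (difference 2.43, edgeR adjusted p = 3.82e-05), and after GC correction the difference was 0.36 (edgeR adjusted p = 0.177).

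For each read on HDDC3, the siNT libraries held 2.58 to 2.87 reads on NADK in experiment 1 and 2.69 to 3.00 in experiment 2. In the siMESH1-7002 libraries the ratio was 23.4 to 35.1, and it was 18.1 and 30.6 in the siMESH1-CDS libraries with a read on HDDC3. The ratio of these mRNAs was thus higher in every knockdown library for which it can be computed. HDDC3 is the target of both siRNAs, so the ratio mainly restates the knockdown and is not a separate result about NADK. With siMESH1-CDS both mRNAs were lower, and with siMESH1-7002 HDDC3 alone of the pair was called.

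PGD, or 6-phosphogluconate dehydrogenase, makes NADPH in the oxidative arm of the pentose phosphate pathway. It had 118, 108 and 118 CPM in siNT and 16.9, 9.41 and 30.3 with siMESH1-CDS. With siMESH1-7002 it had 99.3, 97.9 and 95.8 CPM, and its siNT libraries had 99.5, 96.5 and 99.9. PGD was far below its controls in the first experiment, and its groups overlapped in the second. The log2 fold change was -2.60 with siMESH1-CDS (SE 0.422, edgeR adjusted p = 0.00242) and -0.015 with siMESH1-7002 (95% interval -0.11 to 0.085, edgeR adjusted p = 0.816). PGD kept its call with siMESH1-CDS after GC correction (-1.77, edgeR adjusted p = 3.86e-04). Genes of its GC bin had a median of -0.77, and 9.68% of them had a lower value than PGD. The difference between the siRNAs was 2.73 (95% interval 1.76 to 3.71, edgeR adjusted p = 3.40e-04). PGD has an annotated pseudogene, PGDP1, which can take reads from it.

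TALDO1 encodes transaldolase, which links the non-oxidative arm of the pathway to glycolysis and makes no NADPH itself. It had 90.8 to 108 CPM in siNT of experiment 1 and 14.9 to 37.3 with siMESH1-CDS, and it fell by 1.99 on the log2 scale (SE 0.336, edgeR adjusted p = 0.00282). In experiment 2 the siNT libraries had 136 to 143 CPM and those of siMESH1-7002 had 136 to 145. The groups overlapped there, and the log2 fold change was 0.012 (95% interval -0.086 to 0.11, edgeR adjusted p = 0.846). After GC correction TALDO1 was at -0.12 with siMESH1-CDS (edgeR adjusted p = 0.338) and at 0.14 with siMESH1-7002 (edgeR adjusted p = 0.00148). All genes had a median of 0.076 with siMESH1-7002 after the correction. The difference between the siRNAs fell from 2.15 to 0.19 with the correction and lost its call (edgeR adjusted p = 0.182). For each TALDO1 read there were 1.09 to 1.19 reads on PGD in siNT of experiment 1 and 0.634 to 0.811 with siMESH1-CDS, so the ratio was lower in every siMESH1-CDS library than in any siNT library. In experiment 2 the ratio was 0.676 to 0.732 in siNT and 0.684 to 0.706 with siMESH1-7002.

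ME1, the cytosolic malic enzyme, turns malate into pyruvate and makes NADPH. It had 129, 134 and 124 CPM in siNT and 293, 357 and 248 with siMESH1-CDS. In experiment 2 it had 98.3, 102 and 112 CPM in siNT and 84.3, 86.4 and 84.9 with siMESH1-7002. Every siMESH1-CDS library lay above its controls and every siMESH1-7002 library below. ME1 rose by 1.21 on the log2 scale with siMESH1-CDS (SE 0.146, edgeR adjusted p = 8.81e-04) and fell by 0.29 with siMESH1-7002 (edgeR adjusted p = 2.62e-04). After GC correction the values were 0.41 and -0.32, both called. The difference was -1.35 (95% interval -1.71 to -0.99, edgeR adjusted p = 5.28e-05), and -0.66 after GC correction. In a single fit of all 4 groups, the fall of ME1 with siMESH1-7002 missed the threshold (edgeR adjusted p = 0.105). ME1 is the gene of the 9, besides HDDC3, whose 3′UTR matches the siMESH1-7002 seed, and the part of that match in its fall was not tested.

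IDH1 and IDH2 carry out the same reaction, the oxidation of isocitrate with NADP, in the cytosol and peroxisomes and in mitochondria. IDH1 had 112, 102 and 105 CPM in siNT and 258, 289 and 223 with siMESH1-CDS. In experiment 2 it had 135, 142 and 147 CPM in siNT and 86.4, 90.3 and 91.4 with siMESH1-7002. It was thus above its controls with one siRNA and below them with the other, without overlap. IDH1 rose by 1.27 with siMESH1-CDS (SE 0.117, edgeR adjusted p = 4.44e-04) and fell by 0.66 with siMESH1-7002 (edgeR adjusted p = 8.99e-09) on the log2 scale. After GC correction it was at 0.71 and -0.65, both called. The difference between the siRNAs was -1.79 (95% interval -2.07 to -1.50, edgeR adjusted p = 2.67e-06).

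IDH2 moved the other way. It had 90.2, 83.1 and 87.3 CPM in siNT and 25.9, 10.2 and 42.5 with siMESH1-CDS. In experiment 2 it had 357, 348 and 341 CPM in siNT and 436, 427 and 421 with siMESH1-7002. Knockdown and siNT libraries did not overlap, and siMESH1-CDS replicate 2 was the lowest and replicate 3 the highest library of its group. The log2 fold change with siMESH1-CDS was -1.73 (SE 0.485, edgeR adjusted p = 0.0186). It was not called without siNT replicate 1 of that experiment (-1.70, edgeR adjusted p = 0.0507), without siMESH1-CDS replicate 1 (-1.72, edgeR adjusted p = 0.0613) or after GC correction (-0.14, edgeR adjusted p = 0.400). With siMESH1-7002 it rose by 0.30 (95% interval 0.21 to 0.38, edgeR adjusted p = 1.13e-05), or by 0.42 after GC correction, and the single fit of all 4 groups did not call it (edgeR adjusted p = 0.704). The difference between the siRNAs was 2.17 as counted (edgeR adjusted p = 0.00361) and 0.50 after GC correction (edgeR adjusted p = 0.00915).

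**Figure D2:**
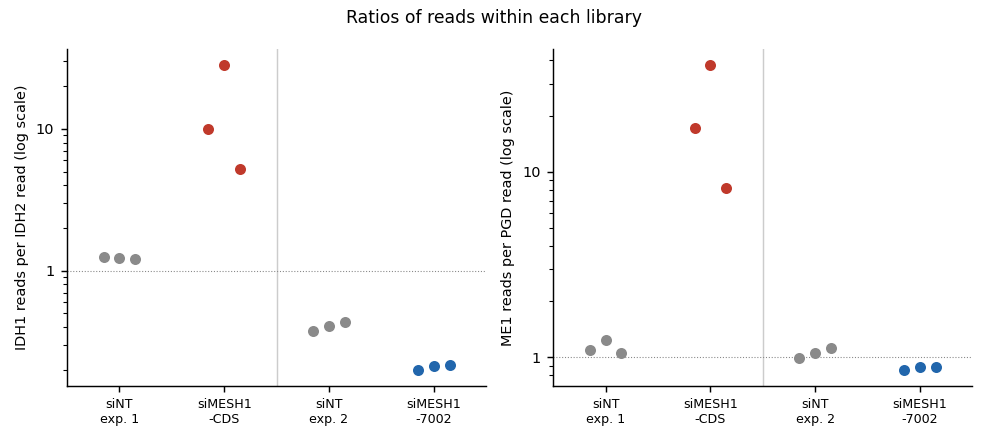
Reads on IDH1 for each read on IDH2 and on ME1 for each read on PGD (vertical log axes) in every library, with siNT in grey, siMESH1-CDS in red and siMESH1-7002 in blue. The ratio of IDH1 to IDH2 is 5.25 to 28.3 with siMESH1-CDS and 0.198 to 0.217 with siMESH1-7002, above and below the siNT libraries of the same experiment.

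The ratio of reads within a library does not depend on how libraries are scaled. IDH1 had 1.24, 1.23 and 1.20 reads for each IDH2 read in siNT of experiment 1, and 9.97, 28.3 and 5.25 with siMESH1-CDS. In experiment 2 the ratio was 0.378 to 0.433 in siNT and 0.198, 0.212 and 0.217 with siMESH1-7002. The plot of read ratios shows both shifts away from siNT, in opposite directions. ME1 reads for each PGD read went the same way, from 1.06 to 1.24 in siNT to 17.3, 37.9 and 8.19 with siMESH1-CDS, and from 0.988 to 1.12 in siNT to 0.849, 0.882 and 0.886 with siMESH1-7002. In both pairs the gene with the lower GC content (IDH1 with 43.1%, ME1 with 39.5%) stands over the one with the higher (IDH2 with 55.9%, PGD with 52.9%), and the part of GC content in these ratios was not tested.

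MTHFD1, the cytosolic enzyme that carries one-carbon units on folate through 3 reactions, one of them an NADP-dependent dehydrogenase, fell with both siRNAs. Its CPM was 154, 151 and 161 in siNT and 76.9, 65.5 and 83.9 with siMESH1-CDS. In experiment 2 it was 105, 107 and 109.5 in siNT and 86.1, 87.6 and 85.2 with siMESH1-7002. No knockdown library reached the lowest siNT library of its experiment. The log2 fold change was -1.04 with siMESH1-CDS (SE 0.114, edgeR adjusted p = 6.70e-04) and -0.31 with siMESH1-7002 (edgeR adjusted p = 2.87e-05). After GC correction it was -0.94 and -0.24, both called. Besides HDDC3, MTHFD1 is the member that was called lower with both siRNAs as counted and after GC correction. The fall was larger with siMESH1-CDS (difference 0.88, 95% interval 0.60 to 1.16, edgeR adjusted p = 1.66e-04). MTHFD1 shares exon positions with ZBTB25, AL122035.1 and AL122035.2 on the opposite strand and has a pseudogene, MTHFD1P1.

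NNT, the transhydrogenase of the inner mitochondrial membrane that passes electrons from NADH to NADP, rose with siMESH1-7002. It had 74.4, 78.3 and 87.9 CPM in siNT and 111, 108 and 111 with siMESH1-7002, a log2 fold change of 0.45 (95% interval 0.33 to 0.58, edgeR adjusted p = 5.60e-06) and 0.42 after GC correction. With siMESH1-CDS it had 63.4, 66.7 and 71.4 CPM against 60.4, 60.5 and 62.2 in siNT. Those groups did not overlap, and the change of 0.14 missed the threshold (95% interval -0.085 to 0.36, edgeR adjusted p = 0.211). Genes of the same GC bin had a median of 1.02 with siMESH1-CDS, and after GC correction NNT was at -0.63 and called lower (edgeR adjusted p = 0.0116). Its direction with siMESH1-CDS therefore depends on the correction, and it was also negative with library size in place of TMM scaling (-0.13). Exons of NNT overlap those of NNT-AS1 on the opposite strand, as exons of IDH1 do those of IDH1-AS1.

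**Figure D3:**
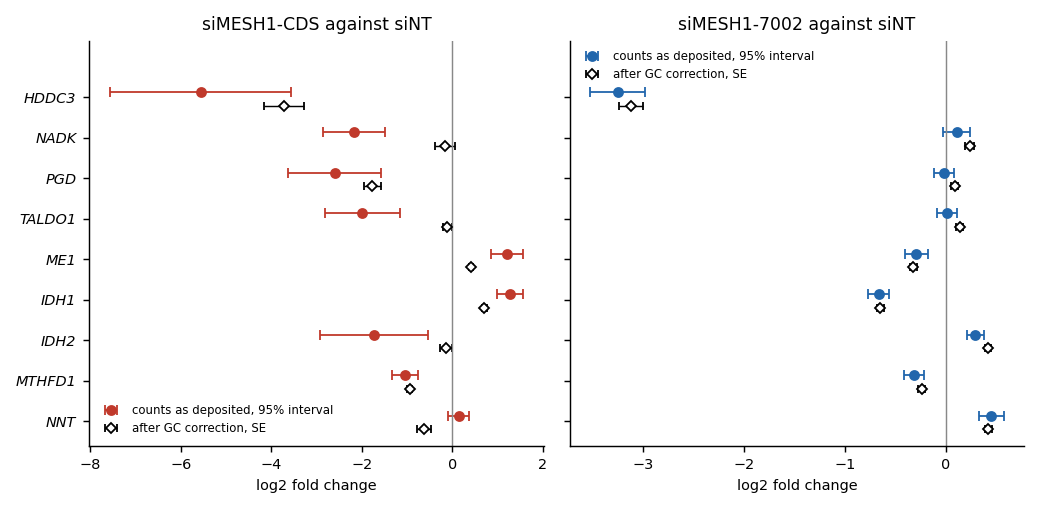
Log2 fold changes (horizontal axes, which differ between panels) of the 9 genes with each siRNA against the siNT libraries of its experiment, 3 libraries each. Filled points are changes as counted with the 95% interval of the edgeR fit, and open diamonds are changes after GC correction with their SE. With siMESH1-CDS, NADK, TALDO1 and IDH2 lie near 0 after the correction, and HDDC3, PGD and MTHFD1 stay below 0. With siMESH1-7002 points and diamonds lie close together, with NADK at 0.11 and 0.24 and IDH1 at -0.66 and -0.65.

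With siMESH1-CDS the changes as counted followed the GC content of the transcripts in part. PGD, IDH2, TALDO1, NADK and HDDC3, the siRNA target, with 52.9% to 56.8% GC, all fell, and ME1 and IDH1, with 39.5% and 43.1%, both rose. MTHFD1, with 48.6%, fell, and NNT, with 39.5%, was at 0.14 and not called. PGD fell more than NADK, TALDO1 and IDH2, whose GC content is higher. Relative to the median of genes in the same GC bin, HDDC3 differed by -3.92 on the log2 scale, PGD by -1.83, MTHFD1 by -0.92 and NNT by -0.89. TALDO1 differed from that median by -0.34 and IDH2 by -0.081, and 40.0% and 47.2% of the genes in their bin had lower values. After GC correction 6 of the 9 genes were called with siMESH1-CDS, where 67.4% of all genes were, and NADK, TALDO1 and IDH2 were not. With siMESH1-7002 all 9 were called after it, where 63.9% of all genes were, and PGD, at 0.092, had the smallest change (edgeR adjusted p = 0.0284). The correction put the median of all genes at 0.076 with siMESH1-7002. PGD and TALDO1 (0.14) lay near that median, so their calls do not set them apart from genes at large. The plot of change against GC content shows that the trend across genes was shallow with siMESH1-7002, and that ME1 and NNT, at 39.5% GC each, stood on opposite sides of 0.

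**Figure D4:**
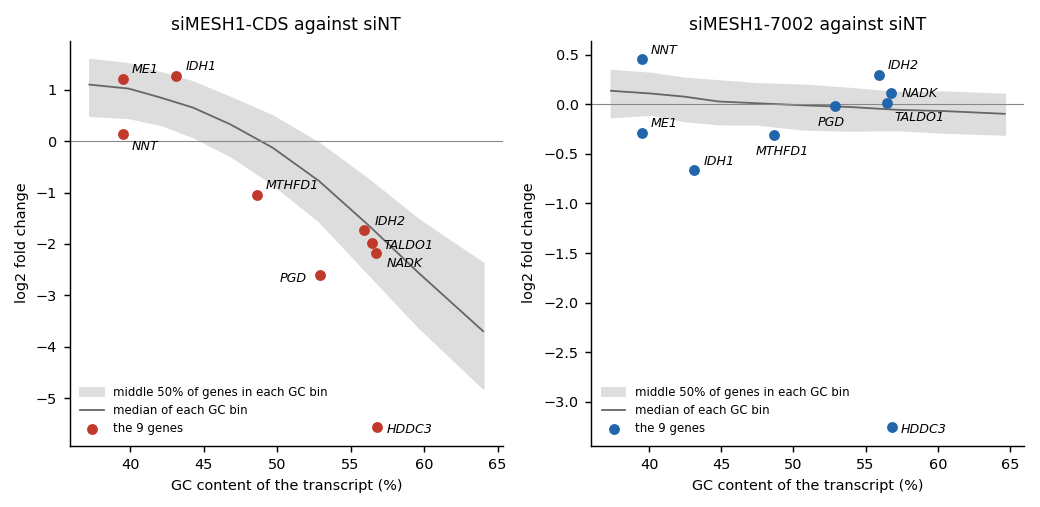
Log2 fold change (vertical axes, which differ between panels) against the GC content of the transcript in percent, for the 9 genes (points) and for all genes tested, in 10 bins of GC content (line, median; grey band, middle 50% of genes). With siMESH1-CDS the median runs from 1.10 to -3.70 with HDDC3, PGD, MTHFD1 and NNT below the band, and with siMESH1-7002 the median runs from 0.14 to -0.097.

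Averaged over both siRNAs in a fit of all 4 groups, all 9 genes were called, where 74.9% of 14154 genes were, with ME1, IDH1 and NNT higher (31.2% of all genes) and the other 6 lower (43.7%). ME1 (0.38, edgeR adjusted p = 0.00160) and IDH1 (0.22, edgeR adjusted p = 0.00997) rose on average although each fell with siMESH1-7002. The test of the difference between the siRNAs was also passed by all 9 genes, where 69.7% of all genes passed it. The difference was positive for 7 (39.7% of all genes) and negative for ME1 and IDH1 (30.0%), and its median over all genes was 0.24. After GC correction the average was called for 4 of the 9, with HDDC3, PGD and MTHFD1 lower and IDH2 higher, where 68.7% of all genes were called, and the difference was called for 6, where 61.4% of all genes were.

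Levels of different genes were compared as CPM per kilobase of transcript. HDDC3 was the lowest of the 9 in every group and NADK the second lowest. In siNT HDDC3 had 3.98 ± 0.485 CPM per kilobase (SD, n = 3) in experiment 1 and 7.05 ± 0.335 in experiment 2. TALDO1 was the highest in siNT of experiment 1 (75.0 ± 6.68), followed by PGD, MTHFD1, IDH1, ME1, IDH2 and NNT, and no neighbours in that order had overlapping ranges. In siNT of experiment 2 IDH2 was the highest (129 ± 3.06), followed by TALDO1, IDH1, PGD, MTHFD1, ME1 and NNT, and the ranges of NNT and NADK overlapped. With siMESH1-CDS IDH1 (105 ± 13.5) and ME1 (88.8 ± 16.3) came first, with overlapping ranges. With siMESH1-7002 the order was that of its siNT libraries, except that PGD stood above IDH1.

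The siNT libraries of the experiments, which had the same treatment, differed for all 9 genes without overlap. IDH2 was 4.01 times higher in experiment 2 (349 against 86.9 CPM), NADK 1.83 times and HDDC3 1.77 times. MTHFD1, ME1 and PGD were higher in experiment 1, by 1.45, 1.24 and 1.16 times. The files of the experiments also differed in the reads set aside as not unique (9.98% to 12.6% in experiment 1 and 23.6% to 27.1% in experiment 2) and in those set aside for low alignment quality (6.31% to 7.59% and 0). Culture, sequencing run and processing cannot be told apart here, so each siRNA was compared only within its experiment. Within experiment 1, lanes 4 and 6 each held 1 siNT and 1 siMESH1-CDS library. Within those lanes HDDC3, NADK, PGD, TALDO1, IDH2 and MTHFD1 were lower and ME1 and IDH1 higher with siMESH1-CDS in both, with log2 ratios for PGD of -1.96 and -2.80 and for IDH1 of 1.00 and 1.30.

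Other enzymes of the routes that make NADPH were counted from a list. Not all of them make it themselves, as PGLS and MTHFD1L do not. Both were among those lower with siMESH1-CDS (-5.32 and -0.76). Of 11 listed, 10 were tested, and ALDH1L2 was under the filter on low counts. With siMESH1-CDS 2 were higher, 4 lower and 4 not called, and with siMESH1-7002 1 was higher, 2 lower and 7 not called, where 74.1% and 53.3% of all genes were called. Their median log2 fold changes were -0.40 and -0.027, beside -0.047 and 0.0053 for all genes. After GC correction 2 were higher and 5 lower with siMESH1-CDS, where 67.4% of all genes were called. With siMESH1-7002 5 were then higher and 2 lower, where 63.9% of all genes were called. Their medians were then -0.35 and 0.074, beside 0.17 and 0.076 for all genes. GLUD1, the mitochondrial glutamate dehydrogenase that can use either NAD or NADP, was called in opposite directions. Its CPM was 240 in siNT and 412 with siMESH1-CDS, a log2 fold change of 0.78 (edgeR adjusted p = 4.68e-04), and 330 in siNT and 135 with siMESH1-7002, a change of -1.28 (edgeR adjusted p = 9.41e-13). GC correction left it at 0.60 and -1.23. GLUD1 thus had the pattern of IDH1 and ME1, higher with siMESH1-CDS and lower with siMESH1-7002. H6PD, which makes NADPH inside the endoplasmic reticulum and is named after its values were seen, was not called with either siRNA as counted (0.085 and -0.0046 on the log2 scale, edgeR adjusted p = 0.777 and 0.950), and after GC correction it was called higher with both (2.03 and 0.12). Of 5 genes listed as making or breaking NADP in other ways, 2 were tested with each siRNA, BST1 was higher with siMESH1-CDS (1.24) and SARM1 lower with siMESH1-7002 (-0.51), both named after their values were seen. Both were at low levels. BST1 had 0.46 CPM in siNT and 1.10 with siMESH1-CDS, and SARM1 3.35 in siNT and 2.34 with siMESH1-7002. NOCT, which like MESH1 removes phosphate from NADPH, was at 0.12 and -0.073 and was not called with either siRNA (edgeR adjusted p = 0.597 and 0.420). Its GC-corrected change with siMESH1-CDS was 1.37 (edgeR adjusted p = 8.61e-04). NADK2, the mitochondrial NAD kinase, was not analysed here.

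NAD, the substrate of NAD kinase, is made by a salvage and a de novo route. Of 9 genes of NAD synthesis, 7 were tested. With siMESH1-CDS 4 were higher and 3 lower, and with siMESH1-7002 3 were higher, 2 lower and 2 not called, beside the same 74.1% and 53.3% of all genes called. The median was 0.72 and 0.080, against -0.047 and 0.0053 for all genes. After GC correction it was 0.49 and 0.13, against 0.17 and 0.076 for all genes. NAMPT, the rate-limiting enzyme of the salvage route, rose with both siRNAs, from 96.4 to 355 CPM with siMESH1-CDS (1.88, edgeR adjusted p = 7.25e-04) and from 70.8 to 101 CPM with siMESH1-7002 (0.51, edgeR adjusted p = 6.72e-06). GC correction left it at 1.00 and 0.46, both called. NMRK1, a nicotinamide riboside kinase, rose by 1.59 and 0.26 (edgeR adjusted p = 8.37e-04 and 0.0257). QPRT, an enzyme of the de novo route, fell with both siRNAs as counted (-3.18 and -0.16, edgeR adjusted p = 0.00307 and 0.00773), and with siMESH1-7002 it was at -0.032 and not called after GC correction. NMNAT3 was higher with siMESH1-CDS (1.44) and lower with siMESH1-7002 (-0.57), and NADSYN1 lower (-2.90) and higher (0.20), each called by the same edgeR test. The level of NMNAT3 was low, with a highest group mean of 1.92 CPM.

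Among 16 partners of these enzymes in pentose, citrate and folate metabolism, 3 were higher and 11 lower with siMESH1-CDS, and 2 were higher and 7 lower of 15 tested with siMESH1-7002. Of all genes, 36.9% were higher and 37.2% lower with siMESH1-CDS and 26.6% and 26.7% with siMESH1-7002. The medians of the partners were -1.94 and -0.067. After GC correction 3 were higher and 8 lower with siMESH1-CDS, with a median of -0.68, and 5 were higher and 4 lower with siMESH1-7002, with a median of 0.011. All genes then had medians of 0.17 and 0.076, and 67.4% and 63.9% of them were called. SHMT2, the mitochondrial serine hydroxymethyltransferase that feeds one-carbon units to folate, fell with both siRNAs (-2.51 and -0.20), as did IDH3A, a subunit of the NAD-linked isocitrate dehydrogenase (-0.27 and -0.53), and SLC25A11, a mitochondrial carrier (-4.37 and -0.20), each called by the same edgeR test. After GC correction the value of SLC25A11 with siMESH1-7002 was -0.074 and missed the threshold (edgeR adjusted p = 0.162). RPIA, an isomerase of the pentose phosphate pathway, rose by 0.46 and 0.21 (edgeR adjusted p = 0.0295 and 0.0455). ACO1, the cytosolic aconitase that supplies isocitrate, was higher with siMESH1-CDS (1.00) and lower with siMESH1-7002 (-0.73), as IDH1 was. TKT, or transketolase, was lower (-2.77, edgeR adjusted p = 0.0434) and higher (0.24, edgeR adjusted p = 2.05e-04), and its siMESH1-CDS call was lost with GC correction (edgeR adjusted p = 0.184).

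Of 21 genes listed as users of NADPH, 6 were higher and 12 lower with siMESH1-CDS, and 4 were higher and 11 lower with siMESH1-7002, with medians of -1.11 and -0.15. Of all genes, 36.9% were higher and 37.2% lower with siMESH1-CDS and 26.6% and 26.7% with siMESH1-7002. After GC correction 4 were higher and 7 lower with siMESH1-CDS, with a median of 0.14, where 67.4% of all genes were called. With siMESH1-7002 8 were then higher and 7 lower, with a median of -0.022, where 63.9% of all genes were called. The correction also raised the medians of all genes, to 0.17 and 0.076, and the share of called genes that are higher. Both medians of the list thus lay below those of all genes. DHCR7, which acts late in cholesterol synthesis, fell with siMESH1-CDS (-3.20, edgeR adjusted p = 0.00534) and with siMESH1-7002 (-0.49, edgeR adjusted p = 7.27e-08), and both values were called after GC correction too (-1.01 and -0.36). FASN, the fatty acid synthase, fell with both (-3.67 and -0.44), but with siMESH1-CDS it was at 0.62 and not called after GC correction (edgeR adjusted p = 0.354). AKR1C1, an aldo-keto reductase, rose by 1.43 and 1.23 from low levels, with a highest group mean of 3.96 CPM, and its siMESH1-CDS call was lost with GC correction (edgeR adjusted p = 0.166). FDXR, which passes electrons from NADPH to mitochondrial ferredoxin, was lower with siMESH1-CDS (-3.13) and higher with siMESH1-7002 (0.79), and it was at 0.19 and not called with siMESH1-CDS after GC correction (edgeR adjusted p = 0.654).

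Genes whose levels moved most like those of HDDC3, NADK and PGD were ranked by the Pearson correlation of log2 CPM over the 12 libraries, after each gene was centred within each experiment, among 11549 genes. The libraries fall into knockdown and control groups, so these values mainly describe like changes between groups. For HDDC3 the nearest genes were CCM2 (r = 0.995), SAE1 (r = 0.994), CDCA3 (r = 0.994) and H2AFY (r = 0.994), which were at -2.57, -1.21, -3.69 and -1.55 with siMESH1-CDS and at -1.39, -0.62, -2.29 and -0.82 with siMESH1-7002. For NADK they were DVL2 (r = 0.999), SHISA5 (r = 0.998), ARAP1 (r = 0.998) and STX1A (r = 0.997), with a GC content of 60.2% to 60.5%. For PGD they were CD2BP2, PLOD1, RPS19BP1 and RPL36, each at r = 0.999, with changes of -3.90 to -5.33 with siMESH1-CDS and of -0.049 to 0.095 with siMESH1-7002. The nearest genes of NADK were at -2.09 to -3.86 with siMESH1-CDS and at 0.097 to 0.20 with siMESH1-7002.

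The promoters of the 9 genes (RefSeq, 250 bases before to 50 after the start) were searched for TGACNNNGC on either strand, the core of the antioxidant response element that NRF2 binds. It was found in those of PGD and ME1, 2 of 9 or 22.2%, and in 14.4% of 15448 promoters of the same length. PGD and ME1 moved apart with siMESH1-CDS, as given above, and a match of letters is not evidence of binding.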

How the data were processed

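RNA of 12 libraries was sequenced as single-end reads of 50 bases after TruSeq Stranded mRNA preparation. The authors deposited raw read counts per gene from HTSeq, and the submitters' processing notes list FastQC, HISAT2, HTSeq and DESeq2 and the build hg19, with versions not given in the sources used here. Summary rows without a gene were dropped, of which reads in no feature made up 14.7% to 20.8% (experiment 1) and 10.0% to 12.2% (experiment 2). A pair of deposited tables with the authors' own comparisons (mean normalized counts, fold changes and p-values) was not used.

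Counts were tested in edgeR 4.0.16 (R 4.3.3) by the quasi-likelihood test after filterByExpr and TMM scaling, with p-values adjusted by Benjamini-Hochberg over all genes tested and called under 0.05. Each experiment was fitted apart, and the average and the difference of the siRNAs came from a fit of 4 groups. DESeq2 1.42.0 was an alternative. The GC correction subtracted, per library, a lowess curve (span 0.3) of log2 CPM with a prior count of 1 on transcript GC content. One TMM-scaled CPM stands for 31.6 to 53.2 reads in experiment 1 and 24.9 to 31.7 in experiment 2, which limits the precision of low genes, and exact reads are given where counts were near 0. GC content, exons and siRNA sites came from GENCODE release 29 on GRCh38, a build other than that of the files, where 21257 symbols were found, 1083 more were found through a former symbol and 1370 were not. The labels name the libraries of a group biological replicates. The main fits did not pair libraries by replicate number. In experiment 1 deviations correlated at -0.047, 0.224 and 0.128 for shared numbers, beside -0.264 to 0.167 for unlike numbers. In experiment 2 these values were -0.063, 0.042 and -0.076, beside -0.087 to 0.144.

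The 9 genes and the gene lists were chosen with earlier results of these data known. In each list, genes called in the same direction with both siRNAs were named, at most 5 by the larger of their smaller changes, and at most 3 called in opposite directions. Genes most like HDDC3, NADK and PGD were the 4 with the highest Pearson r, among genes with a mean of at least 1 CPM in each experiment. The steps were tested on simulated data with 200 changed genes, where every gene had the common coefficient of variation of its experiment. Of 2-fold changes, 18% were recovered at the spread of experiment 1 and 92% at that of experiment 2. For 4-fold changes these shares were 94.5% and 99%. These shares hold for that setting only. In the data 74.1% of genes were called with siMESH1-CDS, and the SE differed between genes, from 0.0913 for NNT to 0.823 for HDDC3. A gene not called with siMESH1-CDS may still have changed, within the limits of its own interval. Results for some single genes are left out here.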

Additional observations from a re-analysis of the deposited data

Results flagged for a closer look

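For all 9 genes the change with siMESH1-7002 differed from the change with siMESH1-CDS by the test of the difference itself, in the edgeR fit of 4 groups. On the log2 scale, as siMESH1-7002 minus siMESH1-CDS, the difference was 2.47 for HDDC3, 2.43 for NADK, 2.73 for PGD, 2.15 for TALDO1, 2.17 for IDH2, 0.88 for MTHFD1 and 0.47 for NNT. It was -1.35 for ME1 and -1.79 for IDH1. The edgeR adjusted p-values ran from 2.67e-06 for IDH1 to 0.00422 for NNT, and 69.7% of all genes passed this test. The median difference of all genes was 0.24. The fit of 4 groups shares 1 biological coefficient of variation (0.196) between experiments that had 0.299 and 0.0490 apart. Its p-values therefore rest on a spread that neither experiment had by itself. HDDC3 and MTHFD1 fell with both siRNAs and by different amounts, and ME1, IDH1 and IDH2 were called in opposite directions. After GC correction the differences of HDDC3 (0.51), NADK (0.36) and TALDO1 (0.19) were not called, and the other 6 were, at 1.84 for PGD, -0.66 for ME1, -1.29 for IDH1, 0.50 for IDH2, 0.73 for MTHFD1 and 1.12 for NNT. The difference of HDDC3 ran from 1.84 without siMESH1-CDS replicate 2 to 3.47 without siMESH1-CDS replicate 3. The siRNAs were used in separate experiments with separate controls, so siRNA and experiment cannot be told apart in these differences.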

How the results depend on the processing

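HDDC3 and MTHFD1 stayed lower and called with both siRNAs under all alternatives run, with HDDC3 between -6.66 and -3.40 for siMESH1-CDS and between -3.44 and -3.12 for siMESH1-7002, except that HDDC3 could not be tested with siMESH1-CDS under a minimum of 10 counts in every library. The direction of NNT with siMESH1-CDS, not called as counted, turned to -0.13 with library size in place of TMM, -0.050 with the count minimum, -0.021 in the single fit of 4 groups, -0.63 with GC correction, -0.65 with it and the replicate block, -0.80 with GC correction of relative values, and -0.60, -0.51 and -0.83 with GC correction without siMESH1-CDS replicates 1, 2 and 3. The last 2 kinds were chosen after seeing the data. Leaving out a library under GC correction also put IDH2 at 0.0077 without replicate 2 and NADK at 0.041 without replicate 3. For siMESH1-7002, PGD turned to 0.092 (GC correction), 0.093 (with the replicate block) and 0.013 (relative values), and ran from -0.028 to 0.00032 with single libraries left out, as TALDO1 did from -0.011 to 0.038. Averaged over the siRNAs, GC correction gave 0.18 for IDH2, 0.069 for NADK, 0.052 for TALDO1 and -0.12 for NNT; with the replicate block 0.17, 0.069, 0.050 and -0.13; and with relative values 0.048 for IDH2, -0.22 for NNT, -0.082 for IDH1 and -0.069 for ME1. Members called on average were then 4 with GC correction and 3 with the block as well, against 9. In the single fit of 4 groups 2582 genes in place of 7235 were called with siMESH1-7002. The replicate block alone changed no call of the 9 genes and gave 9273 genes in place of 9926 with siMESH1-CDS and 6972 with siMESH1-7002. The cause of these changes was not tested. With 0 to 11 reads in the siMESH1-CDS libraries, depth limits how precisely the remaining HDDC3 is known.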
